A study of Homo sapiens with 8 samples.

Results

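The interferon ligands, receptors, kinases and suppressors examined here are 10 human genes: the ligand genes IFNB1 and IFNL1, the receptor genes IFNAR1, IFNAR2, IFNGR1 and IFNGR2, the kinase genes JAK1 and TYK2, and the suppressor genes SOCS1 and SOCS3. They were chosen by symbol, and every probe that the array annotation pairs with one of these symbols was taken, which gave 14 of the 47312 probes on the array and 10 of 20043 named genes. The cells were OVCAR-3, an established human ovarian carcinoma line, profiled on single-colour Illumina BeadChips 48 h after transfection. The siHBO1 group (4 arrays) received siRNA against HBO1, the histone acetyltransferase encoded by KAT7, and the siCTRL group (4 arrays) received scramble siRNA; both groups were therefore transfected with RNA, and no untransfected cells were among the samples. The question was whether transcripts of the interferon system stood at another level after HBO1 siRNA than after control siRNA.

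Interferons are secreted proteins that warn cells of viral nucleic acid. Interferon beta, a type I interferon, binds a receptor made of the IFNAR1 and IFNAR2 chains, which carry the kinases TYK2 and JAK1; interferon gamma binds IFNGR1 and IFNGR2, and the type III interferon encoded by IFNL1 binds IFNLR1 and IL10RB. The kinases phosphorylate STAT proteins, and a complex of STAT proteins with IRF9 switches on interferon-stimulated genes, among them the brakes SOCS1 and USP18 that shut the receptors down again. Ligand genes are near silent in most resting cells and are induced when nucleic acid sensors fire, whereas receptors and kinases are made all the time.

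Windows of 250 bases before to 50 bases after the transcription start were read from RefSeq (GRCh38.p14) for 9 of the 10 genes; IFNAR2 had no entry. They were searched on both strands for GAAANNGAA, the core of sites bound by interferon regulatory factors, for GGAAATTCC, the core of an NF-kB site, and for TTCNNNGAA, a STAT site. The 3 windows that held a match are shown, since they belong to both ligands and to the brake SOCS1; capitals mark the matched letters, and lower case the rest.

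IFNB1, chr9:21077893-21078192, minus strand: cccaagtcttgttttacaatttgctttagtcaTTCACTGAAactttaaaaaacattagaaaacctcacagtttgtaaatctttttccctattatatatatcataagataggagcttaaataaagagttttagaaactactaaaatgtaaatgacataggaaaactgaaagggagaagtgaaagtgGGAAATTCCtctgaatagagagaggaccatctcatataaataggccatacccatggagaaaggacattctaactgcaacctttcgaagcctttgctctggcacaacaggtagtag
IFNL1, chr19:39296157-39296456, plus strand: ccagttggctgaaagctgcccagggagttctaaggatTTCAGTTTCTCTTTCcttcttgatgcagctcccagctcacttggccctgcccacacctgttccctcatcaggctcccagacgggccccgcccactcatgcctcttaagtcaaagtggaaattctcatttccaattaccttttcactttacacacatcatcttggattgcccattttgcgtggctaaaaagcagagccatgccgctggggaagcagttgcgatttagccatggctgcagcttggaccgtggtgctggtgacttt
SOCS1, chr16:11256155-11256454, minus strand: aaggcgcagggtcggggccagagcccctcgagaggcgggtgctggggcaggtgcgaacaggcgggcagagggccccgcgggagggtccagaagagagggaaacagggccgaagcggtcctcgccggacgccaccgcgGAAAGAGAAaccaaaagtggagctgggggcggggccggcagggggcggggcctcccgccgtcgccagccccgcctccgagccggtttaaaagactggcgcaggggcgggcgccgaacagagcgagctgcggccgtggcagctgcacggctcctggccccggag

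The IFNB1 window held the NF-kB string, starting 65 bases before the transcription start, and a STAT string 218 bases before it. The IFNL1 window held a pair of overlapping interferon regulatory factor strings, starting 213 and 207 bases before the start. The SOCS1 window held 1, starting 113 bases before the start. Of 35116 promoter windows of the same length, 0.461% held GGAAATTCC, 8.11% held GAAANNGAA and 7.66% held TTCNNNGAA. A match describes the letters of the window and not binding in these cells. The IFNB1 window held no exact GAAANNGAA. The search took exact strings of fixed spacing only, so a window without a match can still hold sites of that kind.

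Arrays had median intensities of 224 to 324, with 20504 to 22111 probes detected on each. KAT7, the targeted gene, had normalized log2 intensities of 7.67, 7.97, 7.93 and 7.35 on siCTRL replicates 1 to 4 and of 6.66, 6.86, 7.04 and 7.43 on siHBO1 replicates 1 to 4, so the array labelled siHBO1 replicate 4 was not lower than its control; the log2 fold change was -0.73 (limma adjusted p = 0.586). With both replicate 4 arrays left out, none of the member genes tested passed, with or without the replicate number as a block (0 of 8 in each limma fit). All 7 markers of ovarian serous epithelium were measured (PAX8, WT1, MUC16, EPCAM, KRT7, KRT8 and KRT18). The leukocyte markers PTPRC, CD3E, ITGAM and CLEC4C were detected on no array. CD14, CD68 and IL3RA were tested, at log2 fold changes of -0.02 to 0.09. CD14 stood at 8.53 to 9.41 and IL3RA at 6.40 to 6.96. CD68 stood at 12.27 on siCTRL and 12.31 on siHBO1 replicate 1, and at 10.09 to 10.29 on the other arrays. MUC16 stood at 13.93 on both replicate 1 arrays and at 12.22 to 12.50 on the others. No gap of that size was seen for the other ovarian markers. The summed intensity of the leukocyte probes was 5943 to 6790 on siCTRL and 5472 to 7610 on siHBO1 arrays. In RNA from whole cultures, more transcript per cell cannot be told apart from more cells that express it.

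The ligand genes IFNB1 and IFNL1 were detected on hardly any array. IFNB1 was measured by 1 probe, ILMN_1682245, and IFNL1 by 2 probes, ILMN_2149624 and ILMN_1684570. A probe was called detected on an array where the authors' deposited detection p-value, which compares it with negative control beads, was under 0.05. The IFNB1 probe was detected on 0 of 4 siCTRL arrays and on 1 of 4 siHBO1 arrays, and both IFNL1 probes were detected on 0 of 8 arrays.

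The intensity of the IFNB1 probe as deposited was 165, 272, 232 and 241 on siCTRL replicates 1 to 4 and 269, 280, 272 and 345 on siHBO1 replicates 1 to 4. Its detection p-values were 0.812, 0.282, 0.709 and 0.740 on the siCTRL arrays and 0.0143, 0.108, 0.227 and 0.0714 on the siHBO1 arrays. All 4 siHBO1 arrays thus ranked the probe higher against the control beads than any siCTRL array did, although only siHBO1 replicate 1 passed as detected. After background correction and quantile normalization, the log2 intensity was 5.68, 6.00, 5.73 and 5.72 on the siCTRL arrays and 6.67, 6.31, 6.09 and 6.47 on the siHBO1 arrays.

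On this scale the groups of IFNB1 did not overlap. Such a lack of overlap was seen for 1.38% of the 25935 probes that were detected on fewer than 4 arrays with siHBO1 higher, and for 1.32% with siHBO1 lower. The siCTRL mean was 5.78 ± 0.15 and the siHBO1 mean 6.38 ± 0.25 (SD over 4 arrays). The exact 2-sided permutation p was 0.0286, the smallest that 4 against 4 arrays can give. Among those dim probes, the difference of 0.60 was reached or passed by 5, IFNB1 included, while the median difference of these probes was 0.0015; a probe that rose to detection on every siHBO1 array is not among them. No fold change is given, because the siHBO1 mean of 6.38 lay below 6.47, the mean over the siCTRL arrays of the lowest level at which any probe was detected.

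The probe was too dim to enter the comparison across genes. When all probes were let in without a filter, the IFNB1 difference had an unadjusted p of 0.00132 and a limma adjusted p of 0.526 over 37247 genes, so it did not pass. The groups lay apart in 5 of 7 scalings of the values and overlapped in the intensities as deposited and in background-corrected values without normalization; the difference ran from 0.37 to 0.64. These scalings were chosen after the data had been seen. The pairs of the same number differed by 1.00, 0.30, 0.36 and 0.75 for replicates 1 to 4, so the difference was also there without the replicate 4 arrays.

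IFNL1 gave lower values still. On ILMN_2149624 the log2 intensities were 5.49, 5.77, 5.69 and 5.60 on siCTRL replicates 1 to 4 and 6.38, 6.22, 5.77 and 5.81 on siHBO1 replicates 1 to 4. The normalized log2 levels differed by 0.41, with an exact permutation p of 0.0286. This is a difference between levels near background, and no fold change is given, because the probe was detected on no array. Without a filter on dim probes its unadjusted limma p was 0.0209 and its adjusted p 1.00. The groups touched: the lowest siHBO1 value exceeded the highest siCTRL value by 0.00052, and they overlapped in 3 of 7 scalings. On ILMN_1684570 the values were 5.66, 5.78, 5.75 and 5.65 against 5.88, 5.92, 6.11 and 5.73, and the groups overlapped. The detection p-values of both probes lay between 0.0597 and 0.999.

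The dimmest IFNAR2 probe, ILMN_2347999, shared this range, being detected on 0 of 8 arrays with normalized levels of 5.69 to 6.27. All 4 dim probes of IFNB1, IFNL1 and IFNAR2 were higher in siHBO1 in each of the 4 same-numbered pairs of arrays, which held for 6.33% of all dim probes. The groups did not overlap on 2 of the 4, with siHBO1 higher, as for 1.38% of all dim probes. These were the IFNB1 probe and, by a gap of 0.00052 only, ILMN_2149624 of IFNL1. Both IFNL1 probes are among the 4 and measure the same gene. For the IFNAR2 probe the differences within pairs were small, from 0.05 to 0.18 on the log2 scale. The SD between siCTRL arrays was 0.22. Replicate 2 stood highest in both groups (6.16 on siCTRL, 6.27 on siHBO1), so that SD does not measure the spread of the pair differences. Probes at this level share the background of their array, and its part in these differences was not tested.

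**Figure D1:**
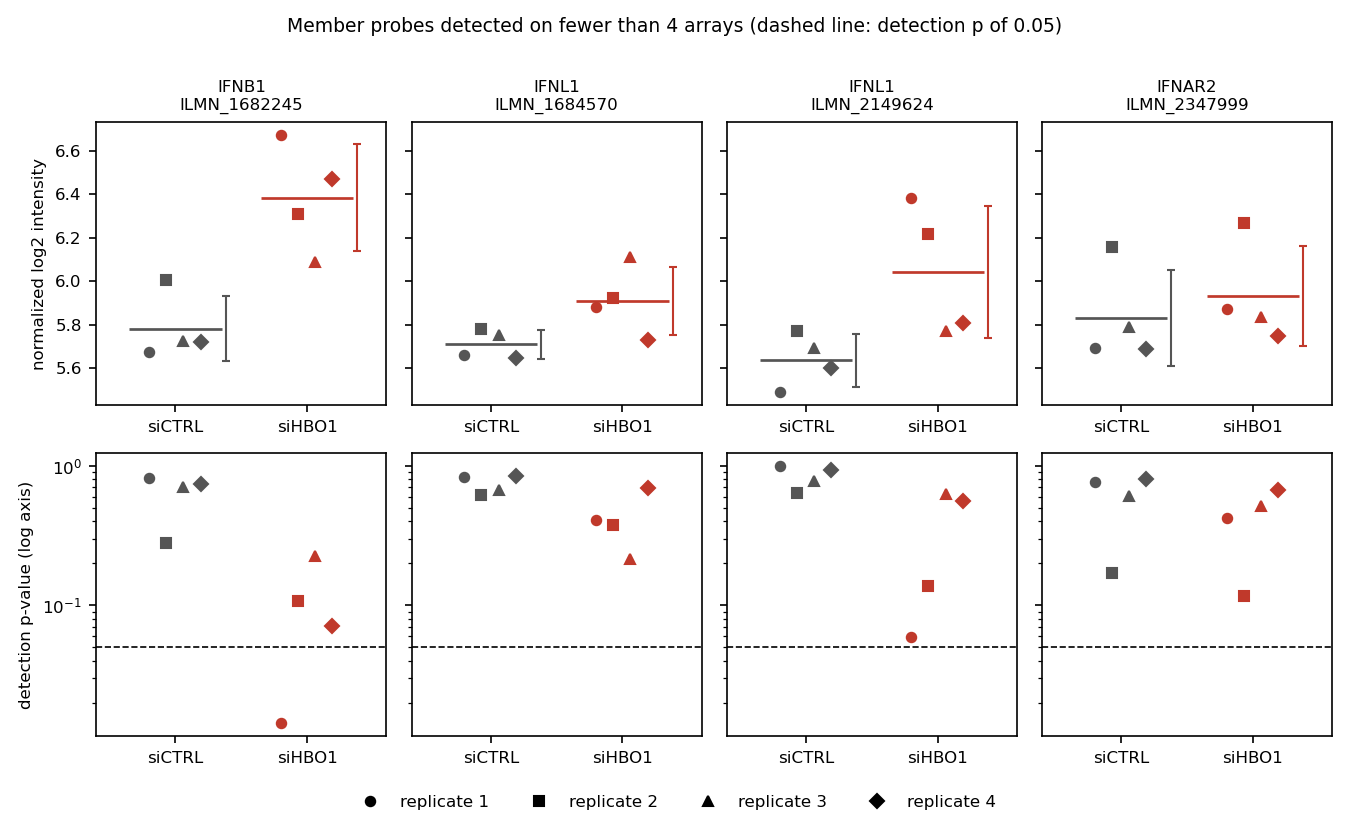
Normalized log2 intensity (upper row) and detection p-value on a log axis (lower row) of the 4 dim member probes on 4 siCTRL and 4 siHBO1 arrays; horizontal lines are group means, bars are the SD, and the dashed line is a detection p of 0.05. The IFNB1 groups do not overlap in either row, yet siHBO1 replicate 1 is the single array below the dashed line.

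The other interferon ligand genes were as dim. Of 20 further ligand genes listed, 19 had a probe (27 probes), 15 of these genes were detected on no array, and no probe reached the 4 detected arrays needed for testing. IFNG, which encodes interferon gamma, and IFNL2 and IFNL3, which encode further type III interferons, were among those detected on no array. IFNK and IFNW1 were each detected on siCTRL replicate 1 alone, and 3 arrays detected IFNA21, 2 of them siCTRL and 1 siHBO1.

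IFNE, an interferon of reproductive tract epithelium, was the exception, and it followed the replicate number and not the siRNA. All 3 of its probes were detected on both replicate 1 arrays, siCTRL and siHBO1, with intensities of 365 to 509. On the 6 arrays of replicates 2 to 4 they stood at 218 to 359, and 1 probe was detected on 1 of those arrays. The labels do not say what arrays of the same number share.

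The receptor, kinase and suppressor genes were well measured for the most part. Of the 14 probes, 10 were detected on at least 4 arrays and entered the tests, and 8 of these were detected on all 8 arrays. They represent 8 of the 10 genes, IFNB1 and IFNL1 being the others. Of these 8 genes, 0 differed between the groups at an adjusted p under 0.05 (limma across all 17297 genes, Benjamini-Hochberg), 0 with the replicate number as a block, and 0 at an unadjusted p under 0.05. Among all genes tested, 0.0347% passed, 0.335% with the block, and 3.79% had an unadjusted p under 0.05. Each of the 8 had an adjusted p of 1.00 without the block, and 0.707 to 1.00 with it. The median log2 fold change of the 8 genes was 0.05, and that of all genes tested was -0.01.

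**Figure D2:**
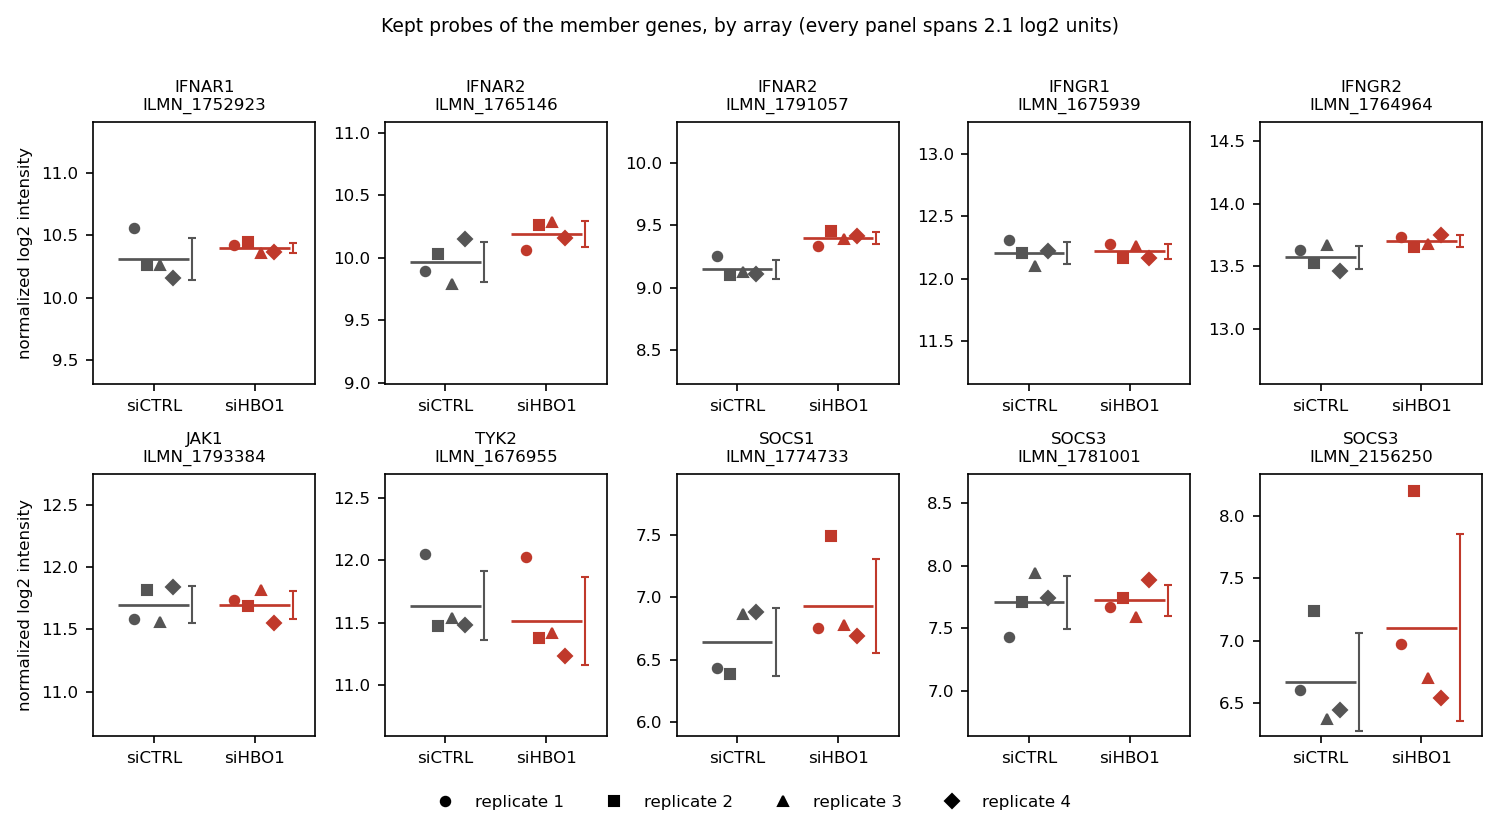
Normalized log2 intensity of the 10 member probes that entered the tests, on 4 siCTRL and 4 siHBO1 arrays, with group means (lines) and SD (bars); each panel spans the same range of log2 units, and symbols mark the replicate number. The 2 groups overlap on every probe except ILMN_1791057 of IFNAR2.

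IFNAR2, the chain of the type I receptor that carries JAK1, had the smallest p of the 8 genes. On its brighter probe ILMN_1765146 the log2 intensities were 9.89, 10.03, 9.79 and 10.15 on siCTRL replicates 1 to 4 and 10.06, 10.26, 10.29 and 10.16 on siHBO1 replicates 1 to 4. The siHBO1 values lay mostly above the siCTRL values, but siCTRL replicate 4 exceeded siHBO1 replicate 1, and the replicate 4 arrays were level. With 4 arrays each, the log2 fold change came to 0.23 (SE 0.11, 95% interval -0.03 to 0.48), which is 1.17-fold, with an unadjusted limma p of 0.0731 and an exact permutation p of 0.0571.

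A second IFNAR2 probe gave the same size of difference with less scatter. On ILMN_1791057 the values were 9.26, 9.10, 9.12 and 9.11 on the siCTRL arrays and 9.33, 9.45, 9.39 and 9.41 on the siHBO1 arrays. The annotation assigns this probe to transcript NM_207585 of the gene and the brighter one to NM_207584. The dim probe ILMN_2347999, detected on no array, is also assigned to NM_207584. The groups did not overlap, as for 1.31% of all tested probes with siHBO1 higher, and this was the 1 of 10 member probes for which they did not. In a fit over all 21377 tested probes its log2 fold change was 0.25 (SE 0.09, interval 0.04 to 0.46), with a limma p of 0.0231 that did not survive adjustment (adjusted p = 1.00, and 0.584 with the replicate block). The exact permutation p was 0.0286. That fit called 0% of probes without the block and 0.323% with it, while 3.7% had an unadjusted p under 0.05. Without both replicate 4 arrays the log2 fold change of the gene, read on the brighter probe, was 0.30 (limma adjusted p = 0.575 with the block). The groups of ILMN_1791057 lay apart in 5 of 7 scalings, with a difference of 0.17 to 0.28.

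IFNAR1, the partner chain that carries TYK2, stood at 10.55, 10.26, 10.26 and 10.15 on siCTRL replicates 1 to 4 and at 10.42, 10.45, 10.36 and 10.37 on siHBO1 replicates 1 to 4. Apart from siCTRL replicate 1, which was the highest of all 8, each siHBO1 array exceeded the siCTRL arrays. The log2 fold change was 0.09 (SE 0.11, interval -0.16 to 0.33), and without siCTRL replicate 1 it was 0.17, which did not pass either (limma adjusted p = 0.986).

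Neither chain of the interferon gamma receptor passed the test. IFNGR1, the ligand-binding chain, stood at 12.31, 12.21, 12.10 and 12.22 on the siCTRL arrays and at 12.28, 12.17, 12.26 and 12.17 on the siHBO1 arrays, and the groups lay on top of each other. Its log2 fold change of 0.01 had a 95% interval of -0.20 to 0.22, which in fold terms is 0.872 to 1.16. IFNGR2, the signalling chain, stood at 13.63, 13.53, 13.67 and 13.46 against 13.73, 13.65, 13.68 and 13.75. It was higher in siHBO1 in all 4 pairs, by 0.01 to 0.29, with a log2 fold change of 0.13 (SE 0.09, interval -0.08 to 0.34, exact permutation p = 0.0571). Of the 10 tested member probes, 4 were higher in siHBO1 in all 4 pairs (both IFNAR2 probes, IFNGR2 and 1 SOCS3 probe), against 6.88% of all tested probes; the 2 IFNAR2 probes measure 1 gene.

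JAK1, the kinase shared by the receptors of all interferon types, had the smallest difference. It stood at 11.59, 11.81, 11.56 and 11.84 on siCTRL replicates 1 to 4 and at 11.74, 11.69, 11.82 and 11.55 on siHBO1 replicates 1 to 4. The group means were 11.70 ± 0.15 and 11.70 ± 0.11 (SD, n = 4 each), and the 95% interval of the log2 fold change, -0.25 to 0.25, covers 0.841-fold to 1.19-fold. The pairs differed in sign, with siHBO1 higher in 2 and lower in 2.

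TYK2, the kinase bound to IFNAR1, set the replicate 1 arrays apart. It stood at 12.05 on siCTRL replicate 1 and 12.03 on siHBO1 replicate 1, against 11.47, 11.53 and 11.48 on the other siCTRL arrays and 11.38, 11.41 and 11.23 on the other siHBO1 arrays. The gap between replicate 1 and the rest was thus larger than any difference between the groups. TYK2 was the only tested member with a negative log2 fold change, -0.12 (SE 0.20, interval -0.56 to 0.32). With the replicate number as a block the SE was 0.09 and the unadjusted p 0.203 (limma adjusted p = 0.849). It was lower in siHBO1 in all 4 pairs, by 0.02, 0.09, 0.12 and 0.25, a pattern shown by 8.34% of all tested probes. The log2 fold change was -0.15 without both replicate 1 arrays (limma adjusted p = 0.815), 0.02 without siCTRL replicate 1 alone and -0.29 without siHBO1 replicate 1 alone; each single removal leaves the other high array without its pair.

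**Figure D3:**
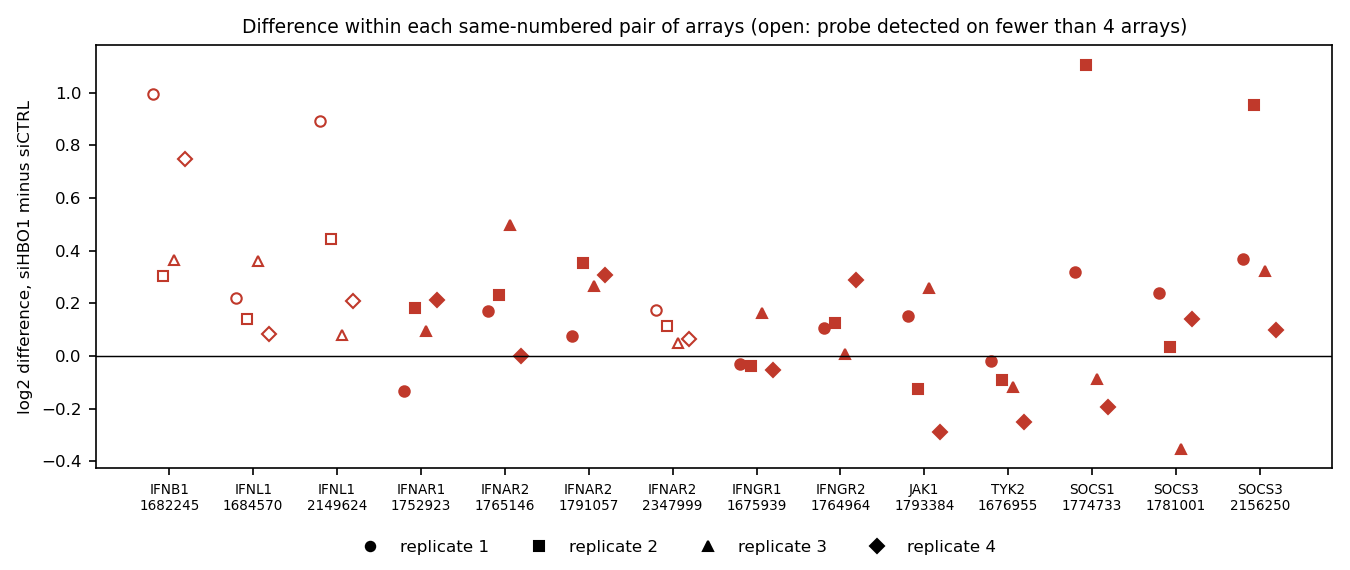
Difference in normalized log2 intensity between the siHBO1 and the siCTRL array of the same replicate number, for all 14 member probes; open symbols are probes detected on fewer than 4 arrays and the digits are those of the probe ID. TYK2 lies below 0 in all 4 pairs and both tested IFNAR2 probes at or above 0, while the replicate 2 pair stands far out for SOCS1 and for the second SOCS3 probe.

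For the brakes, siHBO1 replicate 2 stood out on SOCS1 and on 1 of 2 SOCS3 probes. SOCS1, which binds the kinases and blocks their active site, was detected on 2 of 4 siCTRL arrays and on all 4 siHBO1 arrays. The normalized log2 intensities were 6.43, 6.39, 6.87 and 6.88 on siCTRL replicates 1 to 4 and 6.75, 7.49, 6.78 and 6.69 on siHBO1 replicates 1 to 4. Apart from siHBO1 replicate 2, the siHBO1 values lay within the siCTRL range. The log2 fold change was 0.29 (SE 0.20, interval -0.17 to 0.74), and without siHBO1 replicate 2 it was 0.10. Without both replicate 4 arrays it was 0.45 and did not pass (limma adjusted p = 0.679 with the block).

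SOCS3, which suppresses signalling through receptors of the interleukin-6 family and also inhibits JAKs, was measured by 2 tested probes that differed in that same array. On ILMN_1781001, detected on all 8 arrays, it stood at 7.43, 7.71, 7.94 and 7.75 on the siCTRL arrays and at 7.67, 7.75, 7.59 and 7.89 on the siHBO1 arrays, with a log2 fold change of 0.02 (SE 0.13, interval -0.28 to 0.31). On ILMN_2156250, detected on 5 arrays, the values were 6.61, 7.24, 6.38 and 6.45 against 6.98, 8.20, 6.70 and 6.55. Here siHBO1 replicate 2 stood highest, as it did for SOCS1, and siCTRL replicate 2 was the highest siCTRL array. The log2 fold change of this probe was 0.44 (SE 0.35, interval -0.34 to 1.22), with an unadjusted p of 0.24 that became 0.0186 with the replicate block (limma adjusted p = 0.516).

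The rest of the pathway was read from lists of related genes. Of 52 listed genes, 48 had a probe and 22 were tested, of which 19 had a positive log2 fold change, with a median of 0.06; over all genes tested, 8264 of 17297 were positive and the median was -0.01. Of these, 0 passed the threshold without the block and 1, USP18, passed with it. Listed genes without a probe were not analysed here.

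USP18, a protease that removes ISG15 and that also binds IFNAR2 to keep JAK1 off the receptor, rose in the blocked fit. The normalized log2 intensities were 9.04, 10.14, 9.47 and 9.83 on siCTRL replicates 1 to 4 and 10.90, 11.10, 10.73 and 10.78 on siHBO1 replicates 1 to 4, so every siHBO1 array exceeded every siCTRL array. The log2 fold change was 1.26 (SE 0.22, block SE 0.16), which is 2.39-fold, with a limma adjusted p of 0.0384 with the block and 0.146 without it. Without both replicate 4 arrays it was 1.36, with a blocked limma adjusted p of 0.0574, and without both replicate 1 arrays it was 1.07, with a blocked limma adjusted p of 0.0595; it passed in neither. IRF9, the DNA-binding partner of the STAT complex, stood at 0.80 (SE 0.16), with an adjusted p of 0.262 that was 0.0824 once blocked, and its groups did not overlap either. Lack of overlap with siHBO1 higher was found for 1.35% of all genes tested, and with siHBO1 lower for 1.47%.

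Receptor chains beyond the members did not pass. IFNLR1, the specific chain of the type III receptor, stood at 7.84, 7.74, 7.76 and 7.96 on the siCTRL arrays and at 8.16, 7.93, 8.03 and 8.14 on the siHBO1 arrays, so only siHBO1 replicate 2 fell within the siCTRL range. Its log2 fold change of 0.24 (SE 0.10, unadjusted p = 0.0424) had a limma adjusted p of 1.00. IL20RA, a receptor chain for interleukins of the interleukin-20 group, stood at 0.19, and F3, the tissue factor gene of the same receptor family, at 0.15. IL10RB, the chain shared by the type III interferon and interleukin-10 receptors, stood at 0.04.

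Among other kinases and brakes, 0 passed except USP18. JAK2, which serves the interferon gamma receptor, stood at 0.16 (interval -0.24 to 0.57), and JAK3 was not among the genes tested. The SOCS family members SOCS5, SOCS2, SOCS4 and SOCS7 stood at 0.12, 0.07, 0.06 and 0.02. The SUMO ligase gene PIAS3 stood at 0.10, and CBL, which encodes a ubiquitin ligase, also at 0.10. The remaining listed phosphatases and PIAS genes ran from -0.05 to 0.04. STAT3 stood at 0.20 (unadjusted p = 0.214).

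Genes that interferon induces were listed as context for the members. All 10 had a positive log2 fold change, from 0.82 for MX1 to 2.58 for OAS2, with a median of 1.45, and 2 passed without the block (IRF7 and CXCL10) and 6 with it. They were listed with earlier results of these arrays known, so their count is not independent evidence. Among all genes tested, 0.0347% passed without the block and 0.335% with it. No gene passed with the authors' values, with median scaling or without normalization. CXCL10, a chemokine gene induced by interferon gamma and by type I interferons, rose by 1.76 (SE 0.22, limma adjusted p = 0.0442).

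**Figure D4:**
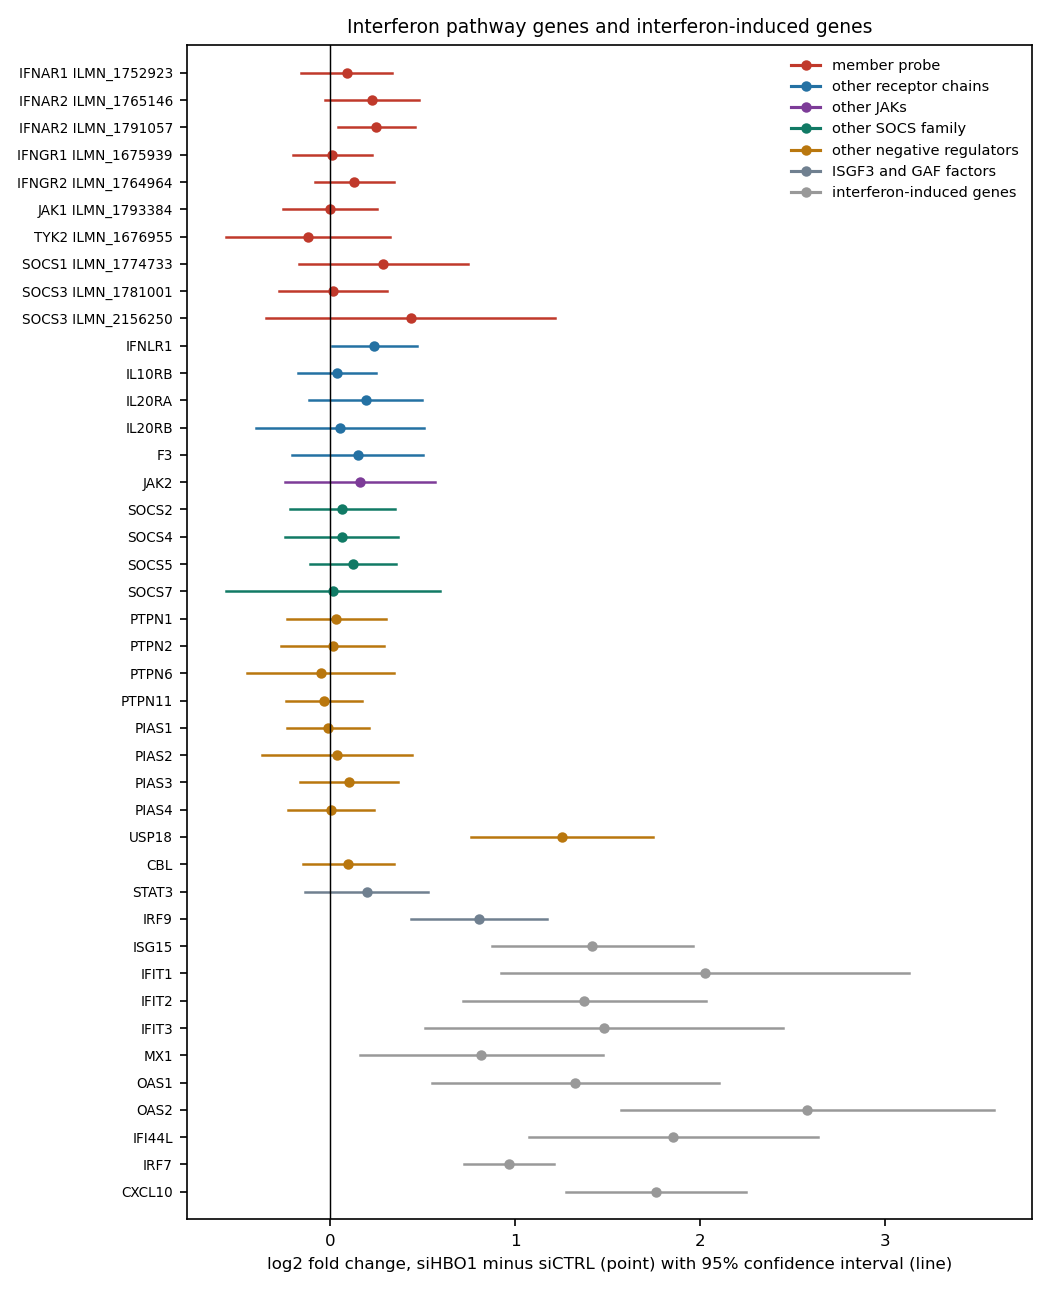
Log2 fold change, siHBO1 minus siCTRL, with its 95% confidence interval for the 10 tested member probes, 22 other pathway genes and 10 interferon-induced genes. The member probes lie between -0.12 and 0.44. USP18 at 1.26 lies within the range of the interferon-induced genes, 0.82 to 2.58, and IRF9 at 0.80 just below it.

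The genes whose pattern over the 8 arrays was nearest to that of IFNAR2 were sought among 12221 named genes, by the root mean square difference of log2 levels centred on each gene's own mean. ATF6B, an endoplasmic reticulum stress factor gene, came first at 0.048, followed by PAAF1 at 0.051, CNOT4 at 0.064, MGLL at 0.068 and DNAI7 at 0.068. The spread of IFNAR2 about its own mean was 0.16 on the same measure. Each of the 5 had a limma adjusted p of 1.00, with log2 fold changes of 0.13 to 0.21. Levels were not scaled, so the measure favours genes whose differences are as small as those of IFNAR2. The listed interferon-induced genes, at log2 fold changes of 0.82 or more, could not have come near. Their absence among the 5 therefore tells nothing about IFNAR2.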

How the data were processed

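The deposited non-normalized values are a linear intensity per probe and array, with a detection p-value deposited beside each; GenomeStudio and lumi are named, without versions, in the submitters' processing notes. The authors' processed values, on a log2 or similar scale that is not stated, served as an alternative. Intensities of 47312 probes were corrected with nec of limma 3.58.1 (normexp, using the detection p-values, with an offset of 16). They were then log2-transformed and, on that scale, quantile-normalized in R 4.3.3. The GEO platform annotation gives 1 symbol for 30108 probes, several for 8 and none for 17196; names were checked by Entrez identifier against RefSeq GRCh38.p14 (30069 matched), which served for names and promoter windows only, since the array's build is not stated. Probes detected (p under 0.05) on at least 4 of 8 arrays were kept (21377), and the brightest kept probe stood for a gene (17297 genes or unnamed probes). Groups, 4 arrays each from the titles, were compared with lmFit and eBayes, 2-sided, with Benjamini-Hochberg adjustment over all features and a threshold of 0.05; single values were also compared by exact permutation. The labels name no separate cultures, and p-values therefore measure only the spread between these samples, and the number of arrays limits precision. Same-numbered arrays deviated together across genes (r = 0.783, 0.324, 0.397 and 0.217 for replicates 1 to 4), every value over 0.1. Only for replicate 1 did no other number correlate more highly. The main fit left the replicate numbers out. They served as the block of an alternative fit and for the differences within pairs. The fitting was tested on simulated data. Genes named in the text are all members, KAT7, list members past the threshold or the 3 of each list with the smallest p, and the 5 genes nearest in pattern; others were named after their values were seen. The members and lists were chosen with earlier results of these data known. The alternatives were the replicate block, other scalings, offsets and filters, probe averaging, array weights and leaving out arrays.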

Additional observations from a re-analysis of the deposited data

Results flagged for a closer look

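Of 20 sets of 4 values (10 tested member probes in each group), 3 held an array far from the other arrays of its group, where chance gives about 1 in 20. TYK2 stood at 12.05 on siCTRL replicate 1, against 11.53 on the next highest siCTRL array. On IFNAR2 probe ILMN_1791057, siCTRL replicate 1 stood at 9.26, against 9.12 on the next, and its ratio of 0.8303 only just passed the limit. SOCS1 stood at 7.49 on siHBO1 replicate 2, against 6.78 on the next highest siHBO1 array.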

How the results depend on the processing

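The 8 tested member genes gave 0 calls in each of the 23 alternatives, and the 10 member probes gave 0 in each of 11, the replicate block (0) included; in all, IFNAR1, IFNAR2, IFNGR2 and SOCS1 kept a positive sign, at 0.04 to 0.17, 0.17 to 0.30, 0.08 to 0.17 and 0.10 to 0.45. SOCS1 had no value under the stricter detection filters. Over all genes, 6 passed in the main setting, 58 with the replicate block, 33 with it and without both replicate 4 arrays, 4 with it and without both replicate 1 arrays, 0 without both replicate 4 arrays (524 at an unadjusted p under 0.05), 17 without both replicate 1 arrays, 68 with array weights, 16 without background correction, 11 at offset 50 and 0 with the authors' values, without normalization or with median scaling (626, 169 and 367 at an unadjusted p under 0.05), and 0 to 5 when 1 array was left out (508 to 948 genes at an unadjusted p under 0.05). Of the other pathway genes 1, USP18, passed with the replicate block and 1 with array weights. KAT7 had an adjusted p of 0.381 with the replicate block and, at -1.01 without both replicate 4 arrays, of 0.426 and, blocked, 0.0394; replicate 4 is the pair in which KAT7 was not lower, so this last value depends on the outcome and is no evidence of a fall. Values near 0 changed sign: JAK1 was -0.0043 with no normalization, -0.0592 with array weights and -0.0513 without both replicate 1 arrays, with or without the block, and SOCS3 was -0.0024, -0.0270 and -0.0596 there and -0.0265 without both replicate 4 arrays, with or without the block. With 1 array left out, JAK1 ran from -0.0459 to 0.0496, SOCS3 from -0.0787 to 0.0952, IFNGR1 from -0.0256 to 0.0448 and TYK2 from -0.293 to 0.0170; the cause of these sign changes was not tested. IFNB1 was detected on 0 arrays at a detection p under 0.01 and on 2 under 0.1, and its signal stayed near background throughout. The SOCS1 and second SOCS3 probes were each detected on 3 arrays under 0.01.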
